A study of Mus musculus with 3 samples.

Results

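The bodies of genes expressed in mouse testes at birth were examined for CpG methylation in spermatogonia at postnatal day 7 (P7). The genes were autosomal RefSeq genes of at least 10 kb whose RNA reached at least 5 RPKM (the read number scaled to gene length and library size) in WT testes at P0. Of 1997 genes with coordinates in the study's expression list as read here, which runs alphabetically only from names with digits to *Adra2a*, 1064 were autosomal and of at least 10 kb, and 271 of these were expressed by this rule. The body was taken from 3 kb past the start to the end of the gene. It was compared with the flank, which is the sequence within 50 kb of either end that lies outside annotated genes. The rule itself uses no methylation value. The number of calls, that is single readings of a CpG site as methylated or unmethylated, was at least 20 in each library for 267 bodies and for 266 bodies with their flanks. *0610010B08Rik*, *4933409K07Rik*, *9030025P20Rik* and *Aasdhppt* had too few calls in the body, and *2810417H13Rik* had too few in the flank.

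*De novo* methylation of the male germline takes place in prospermatogonia, the arrested germ cells of the fetal and newborn testis, and is kept in the spermatogonia that arise from them. DNMT3L has no catalytic activity of its own and assists the *de novo* DNA methyltransferases. PLD6 (also called MitoPLD or Zucchini) is a mitochondrial protein required for the production of piRNAs, small RNAs that silence retrotransposons. Bodies of transcribed genes are commonly methylated in mammalian cells, whereas CpG-rich promoters are mostly free of methylation.

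The study sequenced bisulfite-treated DNA of spermatogonia of C57BL6/J mice at P7, sorted with an anti-EpCAM antibody, from WT, *Pld6* KO and *Dnmt3L* KO (gene symbol *Dnmt3l*) testes. The WT mice of the study were *Pld6*+/+, *Pld6*+/- or *Dnmt3l*+/-, and the labels do not say which of these the WT library came from. The study's methods describe biological replicates. Here 1 file for each genotype was analysed and taken as 1 library, so that genotype and library cannot be told apart and no test between the genotypes could be made. Where 3 levels follow each other without a name, they are given in the order of WT, *Pld6* KO, *Dnmt3L* KO. The intervals below are 95% intervals of the calls (Wilson for a level, Newcombe for a difference). They cover counting error only, and are too narrow, since neighbouring calls can come from a single read.

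The WT library held 43757722 calls (2.001 per CpG site of the reference), the *Pld6* KO library 64076569 (2.93) and the *Dnmt3L* KO library 19289688 (0.882). Over all calls, their methylation levels were 0.703, 0.722 and 0.301. The start of *Kcnq1ot1*, a maternally methylated imprinted region that is unmethylated in male germ cells, had a level of 0.0780 in WT (0.0441 to 0.134, 141 calls) and 0.0700 in *Pld6* KO (0.0441 to 0.109, 243 calls). It was 0.0154 in *Dnmt3L* KO (0.0027 to 0.0821, 65 calls), so that the intervals overlap. The start of *Peg3*, another such region, had 0.0726, 0.0377 and 0 (124, 159 and 37 calls). The annotated start of *Snrpn*, a further imprinted gene, held only 2, 7 and 0 calls, which is too few to read. Its levels were 1 in WT and 0.571 in *Pld6* KO. Whether this window covers the maternally methylated region of the gene was not checked. The RNA that defined expression came from whole testes and not from sorted prospermatogonia. Smooth muscle and vascular genes (*Acta2*, *Actg2* and *Acvrl1*) also passed the rule, and are described as a group of their own below.

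To show what is measured, 200 bp windows of 3 bodies are given with their CpG sites in capitals (mm10, plus strand). All 3 lie in introns. *Adat2* had the lowest body level in *Dnmt3L* KO among expressed genes with at least 100 calls in body and flank of each library, *1010001N08Rik* left aside. *Actr1b*, with the largest difference between body and flank in *Dnmt3L* KO, and *Acta2*, the smooth muscle gene, were added after their values were seen.
Adat2, chr10:13561890-13562089: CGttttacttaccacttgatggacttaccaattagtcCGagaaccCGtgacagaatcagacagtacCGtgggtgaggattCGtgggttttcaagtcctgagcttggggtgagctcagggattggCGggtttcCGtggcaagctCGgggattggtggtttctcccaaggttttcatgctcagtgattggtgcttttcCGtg
Actr1b, chr1:36703463-36703662: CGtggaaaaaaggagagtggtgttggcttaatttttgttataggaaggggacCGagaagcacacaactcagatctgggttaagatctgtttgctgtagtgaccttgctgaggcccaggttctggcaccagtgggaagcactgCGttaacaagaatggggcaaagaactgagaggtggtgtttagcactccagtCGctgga
Acta2, chr19:34242046-34242245: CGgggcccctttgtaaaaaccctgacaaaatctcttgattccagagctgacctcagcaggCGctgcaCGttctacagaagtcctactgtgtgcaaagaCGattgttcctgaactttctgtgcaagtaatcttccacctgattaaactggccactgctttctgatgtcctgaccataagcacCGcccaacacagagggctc
The *Adat2* window, with 9 CpG sites, was methylated in 0 of 17 calls in WT (upper bound 0.184), 5 of 30 in *Pld6* KO and 0 of 16 in *Dnmt3L* KO (upper bound 0.194). It was thus nearly free of methylation in WT as well. The *Actr1b* window, with 4 sites, was methylated in 13 of 14, 27 of 27 and 6 of 10 calls. The *Acta2* window, with 5 sites, was methylated in 15 of 19, 26 of 27 and 2 of 17 calls. The *Acta2* and *Actr1b* windows were thus both mostly methylated in WT. In *Dnmt3L* KO their intervals ran from 0.0329 to 0.343 in *Acta2* and from 0.313 to 0.832 in *Actr1b*, and overlapped at this depth.

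Most expressed gene bodies lay above their flanks in all 3 libraries, and the median distance to the flank was widest in *Dnmt3L* KO. The median body level of the 267 genes was 0.900 in WT (interquartile range 0.854 to 0.923) and 0.888 in *Pld6* KO (0.849 to 0.904), but 0.512 in *Dnmt3L* KO (0.441 to 0.579). The median flank level of 266 genes was 0.690 in WT and 0.716 in *Pld6* KO, but 0.256 in *Dnmt3L* KO. Within a gene, the median difference of body minus flank was 0.183, 0.156 and 0.248. Gene by gene, it was larger in *Dnmt3L* KO than in WT in 155 of 266 (58.3%, against 49.2% of all genes). The flanks upstream and downstream gave the same order, with medians in *Dnmt3L* KO of 0.236 upstream and 0.275 downstream.

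In WT, the body lay at least 0.1 above the flank in 201 of 266 expressed genes (75.6%), where 47.5% of all 1013 autosomal genes of at least 10 kb with enough calls did so. In *Pld6* KO it did so in 184 (69.2%, against 44.6% of all genes), and in *Dnmt3L* KO in 219 (82.3%, against 45.7%). The interval of the difference lay above 0 in 229 expressed genes in WT (86.1%, against 62.8% of all genes). The numbers were 231 (86.8%, against 66.1% of all genes) in *Pld6* KO, and in *Dnmt3L* KO 225 (84.6%, against 50.1%). A body at least 0.1 below its flank was rare, with 8 expressed genes in WT (3.01%, against 9.18% of all genes). There were 6 in *Pld6* KO (2.26%, against 8.09%) and just 5 in *Dnmt3L* KO (1.88%, against 6.71%). For a body at least 0.1 above the flank, the share of expressed genes was thus above that of all genes in each library, with the widest gap in *Dnmt3L* KO. The flank reaches up to the gene start, whereas the body leaves out the first 3 kb. In the 5 kb upstream, the pooled WT level was 0.386 for expressed and 0.663 for silent genes. Without CpG-dense tiles (defined below), 176 expressed genes (66.2%) passed this limit in WT. The *Pld6* KO library then had 143 (53.8%) and the *Dnmt3L* KO library 210 (78.9%). Shares of all and of silent genes were not recomputed without such tiles. How far the choice of flank adds to these gaps was not tested. No test over genes was made, since the genes of a library are not replicates.

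**Figure D1:**
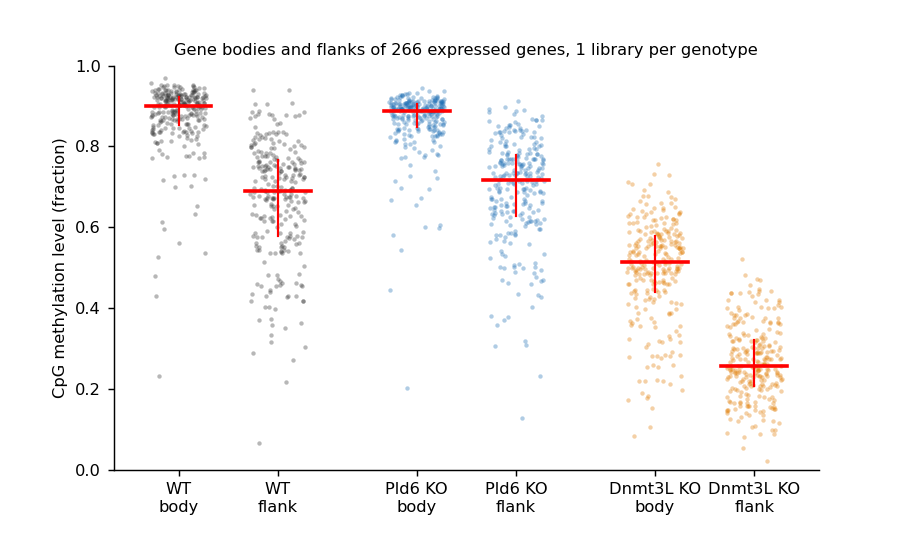
CpG methylation level (fraction of calls, y axis) of bodies and flanks of 266 expressed genes in the 3 libraries (x axis), each point 1 gene, with red bars for the median and the interquartile range. The bodies are packed near the top in WT and *Pld6* KO, at medians near 0.900 and 0.888, and spread around 0.512 in *Dnmt3L* KO, above flanks at 0.256.

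Genes of the same list that were silent at P0 (under 0.5 RPKM) differed from the expressed genes in each library, most in *Dnmt3L* KO. Their median body level was 0.837 in WT and 0.835 in *Pld6* KO, but 0.2997 in *Dnmt3L* KO (568 genes). Their flanks were at 0.767, 0.769 and 0.272 (536 genes), and body minus flank was 0.048, 0.048 and 0.026. A body level of at least 0.5 in *Dnmt3L* KO was found in 147 expressed genes (55.1%), against 33 silent genes (5.81%) and 21.3% of all genes. A level under 0.3 was found in 26 expressed genes (9.74%), against 284 of 568 silent genes and 35.2% of all genes. In WT, a body level of at least 0.8 was found in 240 expressed genes (89.9%), in 63% of silent genes and in 71.7% of all genes. Of silent genes, 32.1%, 31.2% and 24.8% had a body at least 0.1 above the flank. Of expressed genes, 75.6%, 69.2% and 82.3% did so.

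Across the expression range the body level in *Dnmt3L* KO went up to about 10 RPKM and was level beyond that, whereas the flank did not follow. Its medians were 0.293 under 0.5 RPKM, 0.390 from 0.5 to 5, 0.487 from 5 to 10, 0.544 from 10 to 20, 0.515 from 20 to 50 and 0.529 from 50 RPKM on, in genes with enough calls in body and flank. The flanks of the same 6 classes were between 0.247 and 0.274. In WT the bodies of the same classes ran from 0.834 under 0.5 RPKM to 0.910 from 10 to 20 RPKM. The WT flanks went the other way, from 0.767 to 0.677 in these classes. They were at 0.702 from 20 to 50 and 0.669 from 50 RPKM on, so that body minus flank in WT reflects both. The 10 expressed genes just above the limit of 5 RPKM had a median body level of 0.461 in *Dnmt3L* KO, and the 10 genes just below it 0.339. The 10 genes just above the limit of 10 kb in length had 0.530 and the 10 just below it 0.491.

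**Figure D2:**
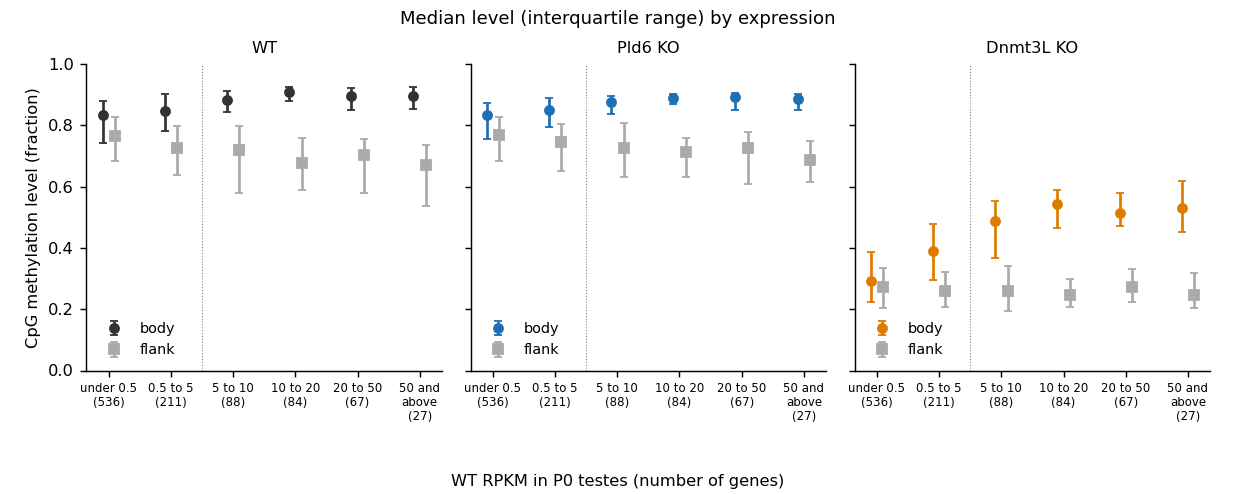
Median CpG methylation level with the interquartile range (y axis, fraction) of bodies (circles) and flanks (grey squares) by WT RPKM in P0 testes (x axis, number of genes in parentheses), 1 panel per library. The dotted line marks the limit of 5 RPKM. In *Dnmt3L* KO the body median goes from 0.293 to 0.544 while the flank median stays between 0.247 and 0.274.

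Expressed bodies were slightly richer in GC (median 44.0%) than silent ones (42.7%), and the level in *Dnmt3L* KO moved with GC content. Genes were therefore compared within 3 classes of the GC content of their bodies. In the class with the least GC, the median body level in *Dnmt3L* KO was 0.475 in 77 expressed and 0.243 in 202 silent genes. In the middle class it was 0.513 in 80 and 0.334 in 198 genes. In the class with the most GC it was 0.552 in 109 and 0.367 in 136 genes. The gap between expressed and silent genes was thus present in each class, and also in each of 3 classes of body length (0.537 against 0.307 in the shortest, 0.519 against 0.301 in the middle and 0.499 against 0.283 in the longest bodies). Across the 266 expressed genes, Spearman's rho of the *Dnmt3L* KO body level was 0.35 with GC content, 0.27 with CpG sites per kb, 0.21 with the rank of expression, -0.14 with length and 0.12 with the level of the flank. These are descriptions across genes of 1 library, which share depth and base composition.

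In *Dnmt3L* KO, expressed bodies kept a larger share of the WT level than their flanks. WT minus *Dnmt3L* KO had a median of 0.369 in the bodies and 0.403 in the flanks. The share of the WT level kept was 0.583 in the bodies and 0.394 in the flanks, and in silent genes it was 0.382 and 0.366. It was higher in the body than in the flank in 235 of 266 expressed genes (88.3%, against 68.3% of all genes). At least 0.5 of the WT level was kept by 203 of 267 expressed bodies (76.0%, against 36.1% of all genes). A loss of at least 0.3, which the study used as its limit for a severe effect on retrotransposons, was nonetheless seen in 214 expressed bodies (80.1%), below the 90.5% of all genes. A loss of at least 0.5 was seen in 33 (12.4%, against 34.3%).

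The *Pld6* KO library was close to WT in expressed bodies. The median of WT minus *Pld6* KO was 0.009, and no expressed body was lower by 0.3 or more, as was the case for 0% of all genes. A level lower by at least 0.1 was found in 4 of 267 bodies (1.5%, against 2.47% of all genes), or in 2 of 231 with at least 100 calls per body, and a level higher by at least 0.1 in 2 (0.749%, against 3.04%). The interval of the difference lay above 0 in 61 bodies (22.8%, against 15.2% of all genes) and below 0 in 15 (5.62%, against 13%). All 4 lower bodies belonged to RIKEN transcripts, which are cDNAs named only by clone and make up 118 of the 267 bodies. *2610005L07Rik* was at 0.826 in WT and 0.654 in *Pld6* KO, but 0.318 in *Dnmt3L* KO, and *2610301B20Rik* at 0.940, 0.801 and 0.281. *4930470H14Rik* was at 0.821, 0.721 and 0.282, and *A630089N07Rik* at 0.888, 0.779 and 0.197. Their level in *Dnmt3L* KO was in each case below the median of the expressed bodies. The difference was 0.172 (0.082 to 0.254) for *2610005L07Rik* and 0.140 (0.101 to 0.177) for *2610301B20Rik*. The 2 higher bodies were *Acat3*, an acetyl-CoA acetyltransferase, at 0.720 in WT and 0.854 in *Pld6* KO, but 0.218 in *Dnmt3L* KO, and *Acvrl1*, at 0.560, 0.666 and 0.178. Below 0.1, *Acer3*, a ceramidase, was lower in *Pld6* KO by 0.088 (0.052 to 0.122), and *Adcy6*, an adenylyl cyclase, was at 0.801 in WT and 0.887 in *Pld6* KO.

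Along the expressed genes, the level was near 0 at the start, climbed within the 3 kb that follow, and stayed even through the body. Within 0.5 kb of the start the pooled level was 0.017 in WT and 0.018 in *Pld6* KO, but 0.007 in *Dnmt3L* KO. From 2.5 to 3 kb past the start it was 0.780, 0.790 and 0.454. Over 10 equal parts of the body it ran from 0.840 in the part nearest the start to 0.880 in the last in WT, and between 0.464 and 0.505 in *Dnmt3L* KO, where the last part was the lowest. The higher level in *Dnmt3L* KO ended near the gene end, with 0.352 in the 5 kb downstream, 0.298 in the next 5 kb and values from 0.258 to 0.298 further out. In the silent genes the step was small, with 0.294 to 0.317 over the parts of the body and 0.248 to 0.295 over the flanks in *Dnmt3L* KO. Within 0.5 kb of their starts the WT level was 0.257.

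**Figure D3:**
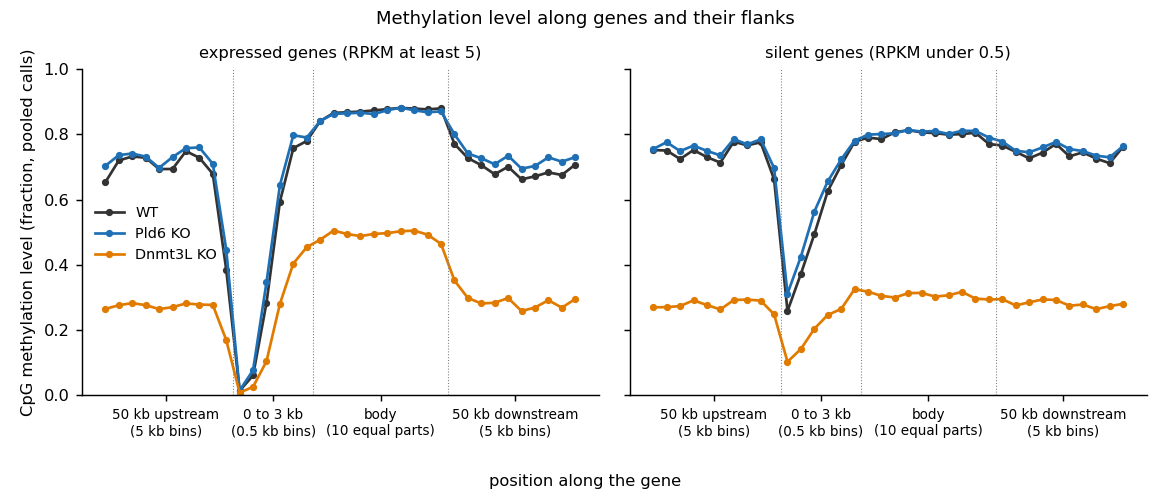
CpG methylation level of pooled calls (y axis, fraction) along expressed (left) and silent genes (right), from 50 kb upstream through the 3 kb past the start and 10 equal parts of the body to 50 kb downstream (x axis), 1 line per library. In expressed genes all 3 lines are near 0 at the start of the gene and form a plateau over the body, between 0.464 and 0.505 in *Dnmt3L* KO, whereas in silent genes the *Dnmt3L* KO line stays between 0.294 and 0.317 there.

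The plateau was alike in most parts of the body. Exons were at 0.869 in WT and 0.871 in *Pld6* KO, but 0.483 in *Dnmt3L* KO, and introns at 0.872, 0.866 and 0.493. Repeats within the bodies were at 0.884, 0.851 and 0.493, and the bases outside repeats at 0.870, 0.869 and 0.491. Repeats thus lay above the other bases in WT but below them in *Pld6* KO. Silent bodies had the same order, with 0.817 against 0.794 in WT and 0.780 against 0.809 in *Pld6* KO. The largest exception was CpG-dense sequence, that is 500 bp tiles with at least 5 CpG sites per 100 bp. It was at 0.098, 0.164 and 0.038 in the bodies and 0.028, 0.039 and 0.024 in the flanks. Without such tiles the flanks were at 0.727, 0.750 and 0.290. The level also differed with the calls at a site. In *Dnmt3L* KO, sites of the bodies with 1 call were at 0.520, those with 2 to 4 calls at 0.484 and those with 5 to 10 calls at 0.438, whereas in WT sites with 1 call were at 0.874, those with 5 to 10 calls at 0.867 and those with 11 to 20 calls at 0.833. In *Pld6* KO the order was the other way round, from 0.845 at sites with 1 call to 0.879 at those with 11 to 20. The part of coverage in the levels was not tested further.

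Expressed bodies varied more among themselves than counting error gives. Both the SD and the counting error were largest in *Dnmt3L* KO. The SD over 267 genes was 0.0881 in WT and 0.0788 in *Pld6* KO, but 0.125 in *Dnmt3L* KO, where counting error alone would give 0.0156, 0.0132 and 0.0359. The lowest and highest body levels were 0.231 and 0.969 in WT, 0.202 and 0.944 in *Pld6* KO, but 0.084 and 0.756 in *Dnmt3L* KO. The genes at the ends of this range are described next, among the 219 with at least 100 calls in body and flank of each library.

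High bodies in *Dnmt3L* KO included those of *Actr5*, *9130401M01Rik*, *Abhd16a* and *Aar2*. The body of *Actr5*, an actin-related subunit of a chromatin remodelling complex (chromosome 2, body 158627913 to 158639211), was at 0.952, 0.912 and 0.730 (0.668 to 0.784, 222 calls), over a flank at 0.798, 0.815 and 0.376. *Abhd16a*, a phospholipid hydrolase, was at 0.942, 0.909 and 0.707, and *Aar2*, which helps assemble the spliceosome, at 0.915, 0.912 and 0.706. *9130401M01Rik* was at 0.933, 0.910 and 0.712. The intervals of these 4 bodies in *Dnmt3L* KO overlap, so that their order is not resolved. They kept between 0.750 and 0.772 of the WT level.

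The difference of body minus flank in *Dnmt3L* KO was largest in *Actr1b*, *Acot7*, *2610020H08Rik*, *Acad9* and *6330549D23Rik*, with values from 0.491 to 0.533. *Actr1b*, a subunit of the dynactin complex (chromosome 1, body 36699202 to 36706925), was at 0.947 in WT and 0.944 in *Pld6* KO, but 0.691 in *Dnmt3L* KO, and its flank at 0.397, 0.467 and 0.158. *Acot7*, an acyl-CoA thioesterase with a body of 90.8 kb (chromosome 4, 152181100 to 152271855), was at 0.901, 0.897 and 0.632, over a flank at 0.362, 0.369 and 0.122. The flanks of these 2 genes were low in WT too, and body minus flank in WT was 0.550 in *Actr1b* and 0.539 in *Acot7*. *Acad9*, an acyl-CoA dehydrogenase that helps assemble respiratory complex I, showed another pattern. Its flank was at 0.770 in WT and 0.142 in *Dnmt3L* KO, so that the difference of 0.495 (0.423 to 0.559) in *Dnmt3L* KO compared with 0.182 (0.147 to 0.218) in WT. Over all expressed genes, the difference was larger in *Dnmt3L* KO than in WT in 155 of 266 (58.3%, against 49.2% of all genes).

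**Figure D4:**
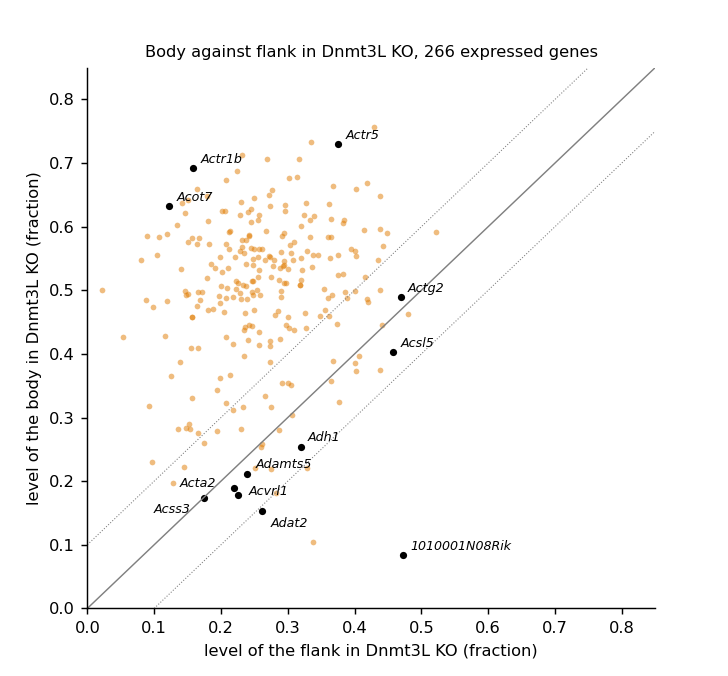
Level of the body (y axis, fraction) against that of the flank (x axis, fraction) in *Dnmt3L* KO, each point 1 of 266 expressed genes, with named genes in black, a line of equality and dotted lines 0.1 on either side. 219 genes lie at or above the upper dotted line, and *1010001N08Rik* lies farthest below the lower one.

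The bodies lowest in WT and those lowest in *Dnmt3L* KO were only in part the same. In *Adat2*, which encodes a subunit of a tRNA adenosine deaminase (chromosome 10, body 13555907 to 13563376), the level was 0.430 in WT and 0.443 in *Pld6* KO, but 0.153 in *Dnmt3L* KO, and the flank was at 0.761, 0.757 and 0.262. In WT, 3 of the 8 tiles of 1 kb in its body were under 0.2, and the window printed above is from this body. In the tiles with a WT level of at least 0.8, *Adat2* was at 0.463 in *Dnmt3L* KO (41 calls). No median over such tiles was made for the expressed genes. *1010001N08Rik*, at 0.231, 0.202 and 0.084 over a flank at 0.907, 0.892 and 0.472, had 2 low tiles of 6. In its highly methylated tiles it was at 0.438 in *Dnmt3L* KO (16 calls). *Adh5*, the glutathione-dependent formaldehyde dehydrogenase, was at 0.480, 0.543 and 0.352 with 2 low tiles of 15, and at 0.535 in *Dnmt3L* KO in its highly methylated tiles. *Abhd4*, a lipid hydrolase, was at 0.526, 0.599 and 0.410 with 2 low tiles of 12, and at 0.598 in its highly methylated tiles. *Adh5* and *Abhd4* were among the 5 lowest bodies in WT but not in *Dnmt3L* KO. They kept 0.732 and 0.780 of the WT level. Low tiles were uncommon, with 90 of 12310 (0.731%) under 0.2 in WT, and 217 of 267 expressed genes had none.

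In other genes the body was low in *Dnmt3L* KO although it was methylated in WT. *Acss3*, a mitochondrial acyl-CoA synthetase with a body of 184.5 kb (chromosome 10, 106936164 to 107120664), was at 0.816 in WT and 0.811 in *Pld6* KO, but 0.173 in *Dnmt3L* KO (0.148 to 0.201, 780 calls). Its flank was at 0.742, 0.790 and 0.175, and body minus flank in *Dnmt3L* KO was -0.002 (-0.071 to 0.056). Starts of other annotated genes lie in the bodies of 70 expressed genes, and *Acss3* holds 3 of them. *Adamts5*, a protease that cleaves aggrecan in cartilage, was at 0.843, 0.819 and 0.212, over a flank at 0.875, 0.861 and 0.239. *Adh1*, an alcohol dehydrogenase, was at 0.771, 0.825 and 0.254, over a flank at 0.762, 0.796 and 0.319. These bodies did not stand above their surroundings in *Dnmt3L* KO. In tiles with a WT level of at least 0.8, *Acss3* was at 0.187 in *Dnmt3L* KO (402 calls), and 2 of its 116 tiles were under 0.2 in WT.

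**Figure D5:**
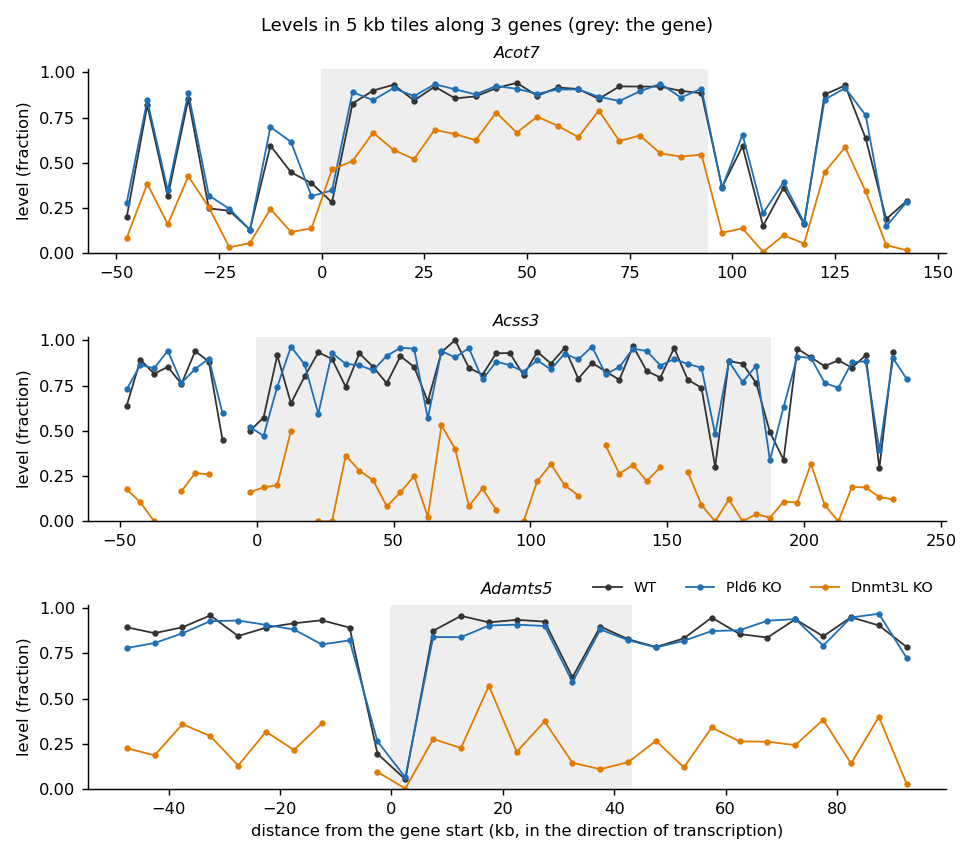
CpG methylation level (y axis, fraction) in 5 kb tiles along *Acot7*, *Acss3* and *Adamts5* (grey) and 50 kb on either side, other genes included, by distance from the start (x axis, kb), 1 line per library, tiles with fewer than 10 calls left out. In *Acot7* the *Dnmt3L* KO line runs high from the start to the end of the gene, whereas in *Acss3* and *Adamts5* it forms no such plateau.

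Of the 3 genes picked as smooth muscle and vascular markers, none had a body at least 0.1 above the flank in *Dnmt3L* KO. *Acta2* and *Acvrl1* had low bodies there. The 3 were picked by name, and whether other expressed genes belong to smooth muscle or vessels was not checked. *Acta2*, the actin of vascular smooth muscle (chromosome 19, body 34240336 to 34252373), was at 0.730 in WT and 0.786 in *Pld6* KO, but 0.189 in *Dnmt3L* KO (0.129 to 0.267), over a flank at 0.671, 0.658 and 0.219. *Acvrl1*, a receptor of the TGF-beta family in blood vessel endothelium, was at 0.560, 0.666 and 0.178, over a flank at 0.585, 0.643 and 0.225. *Actg2*, the gamma actin of smooth muscle, was at 0.857, 0.876 and 0.489, over a flank at 0.747, 0.807 and 0.469. Its body was thus within the interquartile range of the expressed genes, and its flank was nearly as high. *Acvrl1* had 3 low tiles of 14, and in its highly methylated tiles it was at 0.261 in *Dnmt3L* KO; *Acta2* had none, and was at 0.242 there. Which cells of the P0 testis made these RNAs was not measured.

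Grouped by family or role, the expressed genes had medians in WT between 0.860 and 0.930, apart from the smooth muscle and vascular genes at 0.730, and spread more in *Dnmt3L* KO. The 9 genes of nuclear proteins had the highest WT median (0.930) and were at 0.887 in *Pld6* KO but at 0.559 in *Dnmt3L* KO, where all 9 had a body at least 0.1 above the flank, as did 219 of 266 expressed genes (82.3%) and 45.7% of all genes. They ran from *Actr5* at 0.730 to *Adnp*, a zinc finger and homeobox protein that binds chromatin, at 0.462. The 14 genes of ABC proteins, most of which are membrane transporters, were at 0.918, 0.900 and 0.561, and 13 of them had a body at least 0.1 above the flank in *Dnmt3L* KO. They ran in *Dnmt3L* KO from 0.688 in *Abcf2*, a member without membrane domain, to 0.231 in *Abcb5*. Of 17 genes of the actin cytoskeleton, with a *Dnmt3L* KO median of 0.555, 14 passed the same limit of 0.1.

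The 28 genes of lipid and acyl-CoA metabolism were at 0.910 in WT and 0.893 in *Pld6* KO, but 0.538 in *Dnmt3L* KO. In *Dnmt3L* KO, 23 of them had a body at least 0.1 above the flank, and the lowest was *Acss3*. For this and the lists that follow, the comparison is 219 of 266 expressed genes (82.3%) and 45.7% of all genes. The 11 abhydrolases were at 0.493 in *Dnmt3L* KO and all passed this limit of 0.1, including *Abhd3*, the lowest of them at 0.388. The 14 receptors and adenylyl cyclases were at 0.494, and 11 passed the limit. They included the neighbours *Acvr1b*, an activin receptor, at 0.646 in *Dnmt3L* KO, and *Acvrl1* at 0.178, whose genes are 28.8 kb apart on chromosome 15. The 15 ADAM and ADAMTS proteases had the lowest median apart from the smooth muscle and vascular genes, at 0.422, and 10 passed the limit. They ran from *Adam15*, a membrane metalloprotease, at 0.573 to *Adamts5* at 0.212. The 118 RIKEN transcripts with enough calls were at 0.904, 0.885 and 0.516, close to the medians over all expressed genes, and 99 of 117 had a body at least 0.1 above the flank in *Dnmt3L* KO. No test between the lists was made.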

How the data were processed

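FACS-purified EpCAM-positive spermatogonia at P7 were examined in 3 libraries (1 per genotype), grouped by the genotype in the labels. The authors used post-bisulfite adaptor tagging, removed the first 6 and last 15 nt of a read and stretches of a quality under 30, and ran Bismark against mm10. Removal of duplicate reads is not given in the sources used here. Per site, the deposited values were the level as a fraction and counts of calls of either kind. At all sites the fraction was that of the counts, and every site on a chromosome was at a CG of the reference GRCm38.

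The depth was 2.001, 2.93 and 0.882 calls per reference CpG site, and the median body held 612, 913 and 255 calls. Calls were pooled per region, and the level was the methylated counts over all counts. Start positions of the gene list, which count from 0, were raised by 1. Flanks leave out genes of that list and of RefSeq. RPKM values of the list only sorted genes and are not given. The list as read is a part of the whole, so that no overlap or set test was run on it. No test between genotypes was made. Intervals are at 95% and cover counting error only. They were tested on simulated data with set levels and the numbers of calls of the real genes in *Dnmt3L* KO. The simulated calls were independent, so that calls sharing a read were not covered.

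The members, gene lists and thresholds were chosen with earlier results of these data known. Named genes are the 5 highest and 5 lowest for the *Dnmt3L* KO body level, for its body minus flank and for WT minus *Pld6* KO, the 5 lowest in WT, the ends of each list and 3 smooth muscle or vascular markers, among genes with at least 100 calls per region except for the markers. The 4 lower and 2 higher bodies in *Pld6* KO were all named after their values were seen. A gene that this rule names is not reported here. Alternatives changed the calls, body, flank, expression and length limits, the sites and tiles used, and the pooling. Python 3.11.15, numpy 2.4.6, pandas 2.3.3 and matplotlib 3.10.9 were used.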

Additional observations from a re-analysis of the deposited data

How the results depend on the processing

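Of 120 values recomputed under 10 alternatives, 106 stayed within the counting interval of a typical region or, for counts, within 1.5 times. The other 14 moved beyond that. Both limits are wide for medians and counts over many genes, so that the number within them says little about stability. The interval for the *Dnmt3L* KO body level ran from 0.451 to 0.573. In *Pld6* KO, bodies at least 0.1 above the flank fell from 184 to 143 without CpG-dense tiles and still counted as within. Body minus flank, the only kind of result that could change sign, stayed above 0 throughout. With all calls pooled, the WT body level was 0.872 in place of 0.900. Without CpG-dense tiles, body minus flank was 0.141 in WT and 0.111 in *Pld6* KO, in place of 0.183 and 0.156, whereas it was 0.230 in place of 0.248 in *Dnmt3L* KO. With a flank of 20 kb, WT and *Dnmt3L* KO were closer, at 0.217 and 0.241. With all calls pooled they were at 0.196 and 0.218. Limits of at least 20 RPKM or of at least 30 kb leave fewer genes (94 and 134 with body and flank), which by construction lowered the counts. Bodies at least 0.1 above the flank then numbered 72 and 97 in WT, 66 and 87 in *Pld6* KO, and 80 and 113 in *Dnmt3L* KO, which is 85.1% and 84.3% of the genes left in *Dnmt3L* KO. A loss of at least 0.3 in *Dnmt3L* KO was then seen in 74 and 112 bodies. Bodies lower by at least 0.1 in *Pld6* KO numbered 1 and 2, and 2 with at least 100 calls per region. Depth limits the *Dnmt3L* KO library most. No paired analysis was possible because each genotype has 1 library and no test was made.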
